A study of Mus musculus with 8 samples.

Results

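The genes described here mark mural cells, the pericytes and vascular smooth muscle cells that wrap small vessels, in bulk RNA sequencing of the mouse auditory nerve. The members were 10 named genes, taken by symbol from the deposited table without use of their values. 9 of them were among the 15035 genes of the table: Pdgfrb, Rgs5, Kcnj8, Abcc9, Cspg4, Notch3, Acta2, Tagln and Myh11. The tenth, Cnn1, was not analysed here. The auditory nerve, which holds the spiral ganglion neurons with their axons, glia and vessels, was dissected from the cochlea at postnatal day 21. Replicates 1 to 4 were wild type and replicates 5 to 8 were labelled Mef2c heterozygote (+/-), and each of these 8 libraries held both cochleas of 1 mouse. Strain, sex and the design of the Mef2c allele are not given in the sources used here. The design asks which transcripts differ between mice with 1 and with 2 intact copies of Mef2c.

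Pericytes sit on capillaries within the basement membrane they share with endothelial cells, and smooth muscle cells form the contractile coat of arterioles. Endothelial PDGF-B acting on the receptor PDGFR-beta recruits pericytes to growing vessels, and Notch3 signalling maintains arteriolar smooth muscle. The contractile genes of smooth muscle are switched on by serum response factor with myocardin-family cofactors, through a DNA element called the CArG box. MEF2C, a MADS-box transcription factor related to serum response factor, is known to act in smooth muscle and cardiac muscle.

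Values are normalized counts: reads per gene scaled by the authors to a common library size. The estimated depth was 13363262 to 21507345 reads per library. Mef2c itself had 438.6, 498.4, 508.7 and 402.2 normalized counts in wild-type replicates 1 to 4, and 583.3, 704.9, 735.1 and 649.8 in heterozygote-labelled replicates 5 to 8. Its transcript was therefore higher in every library labelled heterozygote, which goes against the label. A value for the whole gene does not show whether a targeted exon was lost, and each direction below is between libraries as labelled. The difference had a two-sided exact permutation p of 0.0286, the smallest that 4 against 4 allows, and a limma-trend adjusted p of 0.186. The authors' deposited table gave Mef2c a ratio of 1.44 and an FDR of 0.0162. Wild-type replicate 1 lay farthest from its group on the first principal component of the residuals (-62.2, against 16.8 to 26.0 in the other wild-type libraries). Wild-type replicate 1 and heterozygote-labelled replicate 5 were low in Xist, a transcript of the inactive X chromosome, with 12 and 7.6 normalized counts against 5175.3 to 8615.3 elsewhere. Neuron markers were abundant, as the labelled tissue calls for, with Nefh between 36654.2 and 63296.0 normalized counts. The replicates are separate mice, and p-values measure the spread between these mice.

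No mural gene passed the test between genotypes. With limma-trend on log2(normalized count + 1) and Benjamini-Hochberg adjustment over 14870 genes, 0 of the 9 members had an adjusted p under 0.05, where 0.0807% of all genes did (0.00672% on the higher side and 0.074% on the lower). Before adjustment 3 of 9 had a p under 0.05, where 14.1% of all genes passed. They were Acta2 and Tagln on the lower side, against 7.34% of all genes, and Cspg4 on the higher side, against 6.72%. That count was 0 without wild-type replicate 1 or heterozygote-labelled replicate 8, where 11.9% and 7.94% of all genes passed. It stayed at 3 without wild-type replicate 3 (23.0%), with Rgs5 in place of Cspg4. It was 1 without wild-type replicate 2 (12.9%), and that gene was Notch3. It was also 1, Acta2, without heterozygote-labelled replicate 7 (10.8%) and after correction for transcript length (11.2%). It was 2 without heterozygote-labelled replicate 5 (13.2%), Acta2 and Tagln, and without both libraries low in Xist (13.5%), Tagln and Pdgfrb. With low Xist (16.5%) or the principal component (22.8%) as a covariate it was 4, the 3 of the main analysis and Notch3. The authors' deposited table likewise gave an FDR under 0.05 to 0 members, against 1.61% of its genes, and an unadjusted p under 0.05 to 3 members, against 15.3%. The genotypes did not overlap in Cspg4 and Notch3, both higher in the libraries labelled heterozygote. That is 2 of 9 members, against 3.4% of all genes not overlapping in that direction, 3.86% in the other and 7.26% in either. 6 members had a log2 fold change above 0, as did 52.3% of all genes, and 3 had one below 0. The median over the members was 0.12, and over all genes tested it was 0.02. In bulk tissue, fewer cells of a type and less RNA per cell cannot be told apart.

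**Figure D1:**
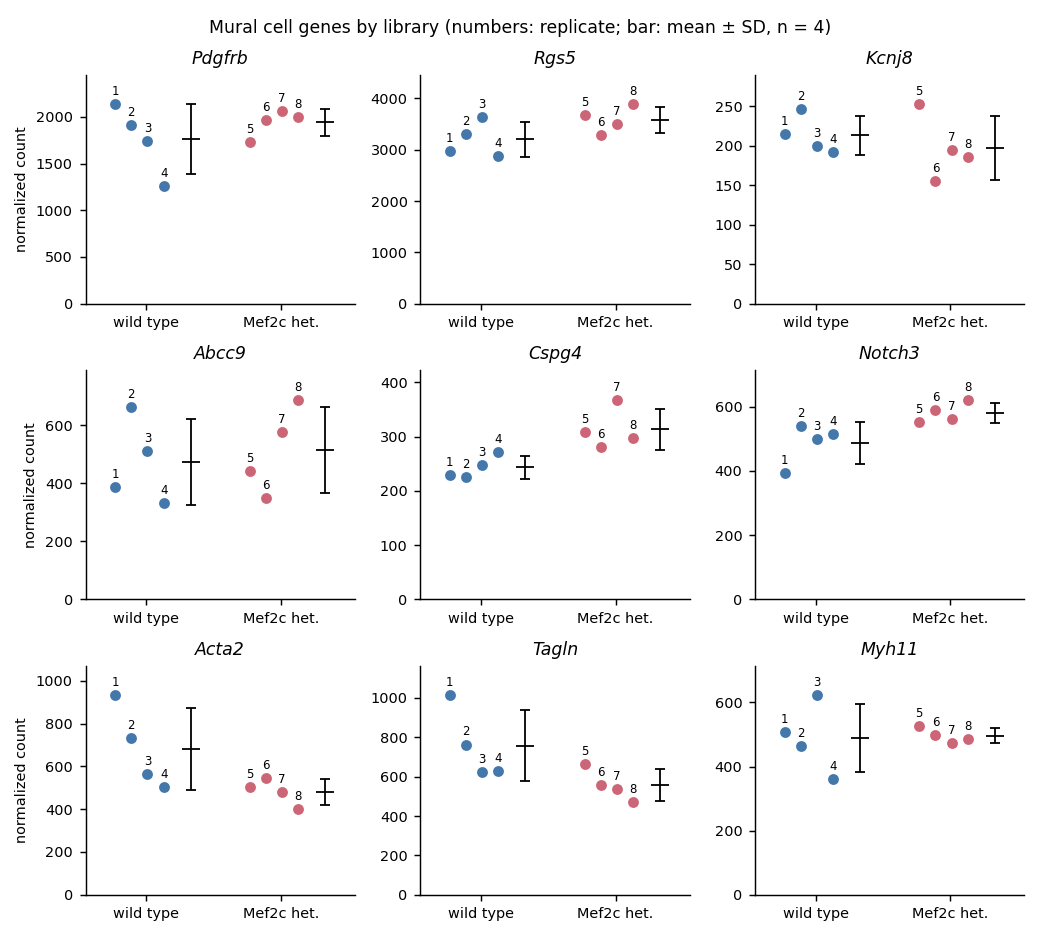
Normalized counts of the 9 mural genes in each library, in 1 panel per gene with the vertical axis from 0; points are libraries numbered by replicate (blue wild type, red labelled heterozygote), and bars give the mean ± SD of 4. All 4 red points of Cspg4 and Notch3 lie above the blue ones, and 3 of 4 red points of Acta2 and Tagln lie below every blue one.

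Among the contractile genes, Acta2 encodes smooth muscle alpha-actin, the thin filament of contractile cells, and lies at chr19:34241090-34255590 on the minus strand of mm10. It had 931.8, 732.6, 562.8 and 504.9 normalized counts in wild-type replicates 1 to 4. In heterozygote-labelled replicates 5 to 8 it had 501.8, 544.6, 478.7 and 401.3. 3 of the 4 labelled libraries lay below every wild-type library, replicate 6 lay above wild-type replicate 4, and the groups overlapped. The means were 683.0 ± 191.9 and 481.6 ± 60.1 (SD, n = 4 each), a ratio of 0.71. On the log2 scale the difference was -0.47 (SE 0.19), at an unadjusted limma p of 0.0260 (limma-trend adjusted p = 0.308). Without wild-type replicate 1, the highest of all, it was -0.31, with a limma-trend adjusted p of 0.449.

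Tagln encodes transgelin, an actin-binding protein of the smooth muscle cytoskeleton also called SM22-alpha, and lies at chr9:45929619-45936058 on the minus strand. Its wild-type values were 1012.3, 763.3, 625.1 and 630.5 normalized counts in replicates 1 to 4, and those of replicates 5 to 8 were 662.6, 557.6, 539.0 and 468.8. The pattern is that of Acta2, with replicate 1 highest and replicate 8 lowest, and here replicate 5 was the labelled library that overlapped. The means were 757.8 ± 181.3 and 557.0 ± 80.1 (SD, n = 4 each). Their log2 difference was -0.43 (SE 0.17), at an unadjusted limma p of 0.0258 (limma-trend adjusted p = 0.308). Without wild-type replicate 1 it was -0.28, with a limma-trend adjusted p of 0.445. Tagln overlaps Pcsk7 on the opposite strand, and although the library kit keeps the strand, whether counting used it is not given in the sources used here. Pcsk7, a proprotein convertase gene, had means of 386.1 ± 41.9 and 401.7 ± 40.6 normalized counts (SD, n = 4 each).

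Myh11 encodes the smooth muscle myosin heavy chain, the thick filament protein and the most specific marker of mature smooth muscle among the members. It had 507.4, 463.7, 621.5 and 362.4 normalized counts in wild-type replicates 1 to 4 and 526.8, 498.4, 474.0 and 485.7 in replicates 5 to 8. The labelled libraries all lay inside the wild-type range. Between genotypes the log2 difference was 0.05, with a 95% confidence interval from -0.30 to 0.39 and a limma-trend adjusted p of 0.907. The ratio of Acta2 to Myh11 was 1.43 ± 0.39 (SD, n = 4) in wild type against 0.97 ± 0.11 (SD, n = 4) in the labelled libraries, with overlap through wild-type replicate 3.

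RefSeq promoters (GRCm38.p6, the assembly also called mm10) matched by symbol for 6 of the 9 members: Rgs5, Kcnj8, Abcc9, Cspg4, Notch3 and Acta2. Pdgfrb, Tagln and Myh11 had no entry. Each window ran from 250 bases before to 50 bases after the annotated start. The CArG box was searched by its consensus, whose 6 centre bases are all A or T, on both strands, which read the same for this palindromic pattern. 1.63% of all 32851 promoters held it, and none of the 6 did. With at most 1 of the 6 centre bases C or G, a looser setting chosen after the strict search, 9.98% of all promoters held a match, and among the members only Acta2 did, with 2. They began 84 and 34 bases before the start. With at most 2 such bases, 31.2% of all promoters matched, and Rgs5, Abcc9, Cspg4 and Acta2 did among the members. The MEF2 consensus site, also a palindrome, was found in 3.19% of promoters and in 1 member, Abcc9, beginning 8 bases before the start. The RBPJ site of Notch signalling, GTGGGAA on either strand, was found in 6.38% of promoters and in none of the 6 members. No printed match overlapped one of another motif. Both stretches run from 190 bases before to 10 bases after the start. Capitals mark the matches to the MEF2 site and to the CArG box with at most 1 C or G; a further Acta2 match, found only when 2 such bases were allowed and beginning 168 bases before the start, is left in lower case. They are shown because they hold the members' matches to the elements of serum response factor and MEF2. The Acta2 stretch is chr19:34255364-34255563 and the Abcc9 stretch chr6:142702265-142702464, both on the minus strand. The GENCODE M21 span of Acta2 (chr19:34241090-34255590) holds the whole Acta2 stretch, and that of Abcc9 (chr6:142587862-142702315) holds part of the other. GENCODE thus places the upstream ends of both genes differently, and all positions here count from the RefSeq start. A match describes letters and not a bound site.
Acta2: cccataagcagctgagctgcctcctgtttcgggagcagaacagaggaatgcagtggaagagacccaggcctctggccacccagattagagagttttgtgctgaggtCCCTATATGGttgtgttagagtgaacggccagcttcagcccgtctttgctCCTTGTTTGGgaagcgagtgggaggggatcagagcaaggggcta
Abcc9: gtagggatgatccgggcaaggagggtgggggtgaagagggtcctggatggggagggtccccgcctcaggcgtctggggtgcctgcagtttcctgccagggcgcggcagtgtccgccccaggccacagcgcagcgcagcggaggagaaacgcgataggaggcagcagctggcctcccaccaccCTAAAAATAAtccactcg

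Acta2 and Tagln moved together from mouse to mouse. Over the 8 libraries their log2 values correlated at 0.95 (Pearson), the highest of the 36 member pairs, and at 0.90 after each genotype's mean was removed. All genes of a library share its depth and dissection, and these coefficients describe 8 libraries only. The ratio of Tagln to Acta2 was 1.12 ± 0.09 (SD, n = 4) in wild type, and 1.16 ± 0.12 (SD, n = 4) in labelled libraries. Against Rgs5, a pericyte gene, the ratio of Acta2 was 0.313, 0.222, 0.155 and 0.175 in wild-type replicates 1 to 4. It was 0.136, 0.166, 0.137 and 0.103 in replicates 5 to 8. Replicate 6 lay above wild-type replicate 3, so the ratios overlapped. These ratios were chosen after the values were seen, and no test was made of them. Notch3 ran opposite to the pair, at -0.83 with Acta2 and -0.89 with Tagln. After each genotype's mean was removed these were -0.68 and -0.79. The transcript of Notch3 has 8016 bases, against 2035 in Acta2 and 1595 in Tagln, and the part of length was not tested.

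**Figure D2:**
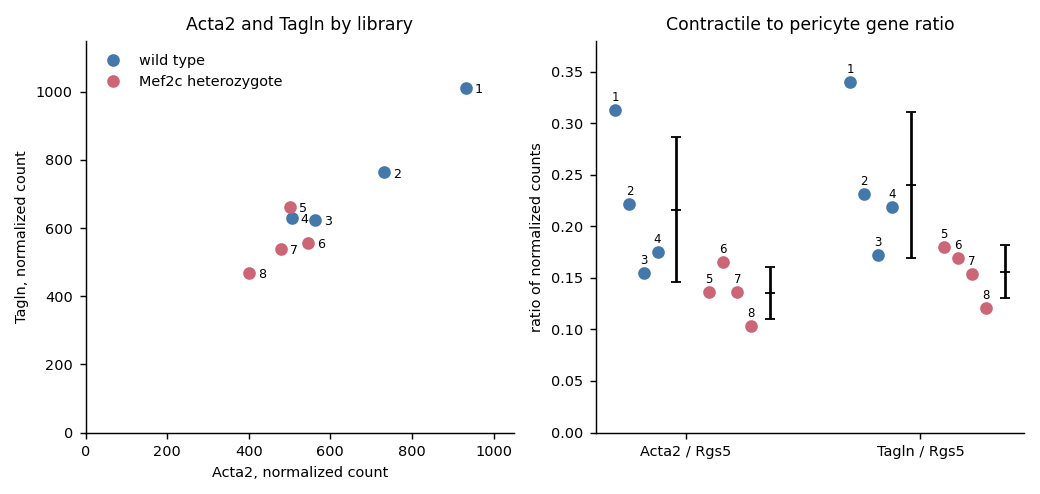
Left, Tagln against Acta2 in normalized counts, 1 point per library numbered by replicate (blue wild type, red labelled heterozygote); right, ratios of Acta2 and Tagln to Rgs5 in the same colours, with bars for the mean ± SD of 4. Wild-type replicates 1 and 2 stand at the upper right, and the other 6 libraries lie together below them.

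Among pericyte genes, Pdgfrb encodes the PDGF receptor beta through which pericytes are recruited. Its values were 2133.5, 1913.8, 1746.2 and 1256.2 normalized counts in wild-type replicates 1 to 4 and 1735.8, 1969.1, 2061.0 and 2000.8 in replicates 5 to 8. Wild-type replicate 4 was low, and every labelled library lay inside the wild-type range. This gave a log2 difference of 0.16, with a 95% confidence interval from -0.15 to 0.48 and a limma-trend adjusted p of 0.610. Without wild-type replicate 4 it was 0.0096, against 0.26 without wild-type replicate 1 and 0.32 without both libraries low in Xist (limma-trend adjusted p of 0.978, 0.449 and 0.367).

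Rgs5 encodes a regulator of G-protein signalling that restrains signals from vasoactive receptors and is a standard pericyte marker. It was the most abundant member, at 2981.0, 3304.8, 3638.1 and 2885.6 normalized counts in wild-type replicates 1 to 4. Replicates 5 to 8 had 3677.9, 3287.4, 3500.9 and 3884.5. All 4 labelled libraries were above the wild-type mean of 3202.4 ± 341.4, and 2 were above every wild-type library. The log2 fold change was 0.17, with a 95% confidence interval from -0.05 to 0.38 and a limma-trend adjusted p of 0.444.

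Notch3 encodes the Notch receptor of mural cells, which responds to Jagged1 on neighbouring cells. It had 391.9, 540.2, 497.7 and 514.5 normalized counts in wild-type replicates 1 to 4, and 550.7, 588.1, 560.7 and 620.7 in replicates 5 to 8. The groups did not overlap, but replicate 5 exceeded wild-type replicate 2 by a narrow margin. The means were 486.1 ± 65.2 and 580.1 ± 31.4 (SD, n = 4 each), or 0.26 on the log2 scale (SE 0.13, limma-trend adjusted p of 0.375). Without wild-type replicate 1, the lowest, it was 0.16. Correction of each library for its trend with transcript length gave 0.06.

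Cspg4 encodes the NG2 proteoglycan, carried by pericytes and also by oligodendrocyte precursors. Wild-type replicates 1 to 4 had 229.7, 225.5, 247.5 and 271.8 normalized counts, and replicates 5 to 8 had 308.5, 280.6, 367.5 and 297.2. Every labelled library lay above every wild-type one, with replicate 7 the highest. The means were 243.6 ± 21.1 and 313.5 ± 37.8 (SD, n = 4 each), a ratio of 1.29. On the log2 scale this was 0.36 (SE 0.15), at an unadjusted limma p of 0.0352 (limma-trend adjusted p = 0.327). The correction for transcript length brought it to 0.15, with a limma unadjusted p of 0.377. Of the 6 oligodendrocyte precursor genes, 5 had log2 fold changes below 0 and 1, Sox10, had one above (0.17). Pdgfra was at -0.062 and Ptprz1 at -0.30. Olig1, Olig2 and Gpr17 were lower in every labelled library than in any wild-type one, with log2 fold changes of -1.28, -1.40 and -1.31, and none passed with limma-trend (adjusted p of 0.154, 0.214 and 0.0973). That is 3 of 6 genes, against 3.86% of all genes not overlapping in that direction. The part of oligodendrocyte precursors in the Cspg4 values was not tested.

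Kcnj8 and Abcc9 encode the pore (Kir6.1) and the regulatory subunit (SUR2) of the ATP-sensitive potassium channel of mural cells, which relaxes vessels when it opens. The genes are neighbours on chromosome 6, separated by 16247 bases in the GENCODE M21 annotation. Kcnj8 had 214.1, 246.8, 198.9 and 192.0 normalized counts in wild-type replicates 1 to 4 and 252.0, 155.1, 194.1 and 185.6 in replicates 5 to 8. Replicate 5 was the highest and replicate 6 the lowest of all libraries. The log2 fold change was -0.13, with a 95% confidence interval from -0.54 to 0.28 and a limma-trend adjusted p of 0.770. With single libraries left out it ran from -0.25 without replicate 5 to -0.023 without replicate 6, and it was -0.056 without wild-type replicate 2.

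Abcc9, at chr6:142587862-142702315 on the minus strand, had 386.7, 665.5, 510.6 and 333.4 normalized counts in wild-type replicates 1 to 4, and 443.2, 349.4, 576.7 and 688.2 in replicates 5 to 8. Both groups spread over nearly the same range, and its coefficients of variation of 31.1% and 28.9% were the largest of any member in either group. The log2 fold change was 0.12, with a 95% confidence interval from -0.41 to 0.65 and a limma-trend adjusted p of 0.835. Its sign was opposite without wild-type replicate 4 or heterozygote-labelled replicate 8, at -0.030 and -0.0335. Despite their shared channel and locus, Kcnj8 and Abcc9 correlated at only 0.32 over the 8 libraries, and their ratio ran from 0.270 in replicate 8 to 0.576 in wild-type replicate 4. The alternative channel subunits, Kcnj11 (Kir6.2) and Abcc8 (SUR1), had values of 0.20 and 0.08 on the same scale (limma-trend adjusted p of 0.633 and 0.842).

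Levels were compared between genes per length, as normalized counts per 1000 bases of the longest annotated transcript, which need not be the one expressed. In wild type Rgs5 was highest at 781.8 ± 83.4 per 1000 bases, followed by Tagln at 475.1 ± 113.7, Acta2 at 335.6 ± 94.3 and Pdgfrb at 325.0 ± 68.8 (SD, n = 4 each). The wild-type libraries of Tagln, Acta2 and Pdgfrb overlapped, and those of Rgs5 lay above them. The lower group held Kcnj8 at 83.6 ± 9.57 per 1000 bases, Myh11 at 74.6 ± 16.4, Abcc9 at 63.2 ± 19.7 and Notch3 at 60.6 ± 8.13, and neighbours in that order overlapped. Cspg4 came last at 30.0 ± 2.59, below every library of the others. In the libraries labelled heterozygote Pdgfrb (358.0 ± 26.3 per 1000 bases) stood beside Tagln (349.2 ± 50.2), and Acta2 was next at 236.7 ± 29.5, below every labelled library of Tagln. Over all libraries Rgs5 lay at the 94.5th percentile of the table by mean normalized count, Pdgfrb at the 86.5th and Kcnj8 at the 29.9th.

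**Figure D3:**
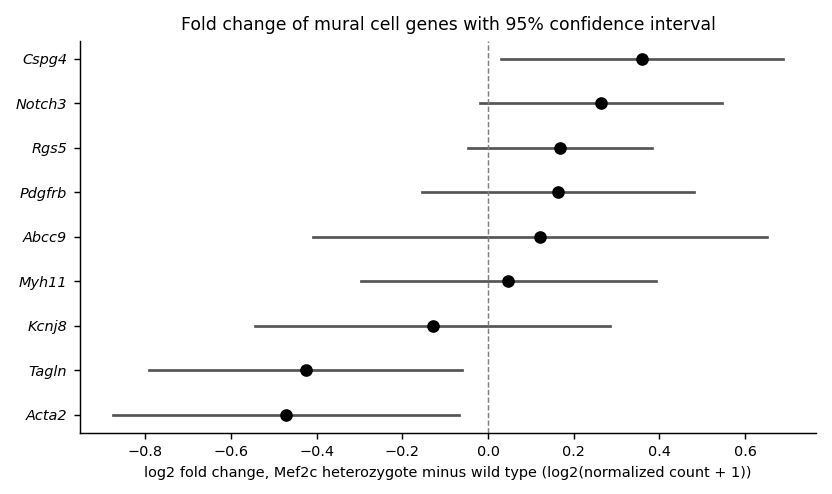
Log2 fold change of each mural gene, libraries labelled heterozygote minus wild type on the log2(normalized count + 1) scale, with points for estimates and lines for limma's 95% confidence intervals before any adjustment. The intervals of Acta2, Tagln and Cspg4 leave out 0 and those of the other 6 genes cross it.

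The members' fold changes followed the length of their transcripts. The 3 shortest, Tagln (1595 bases), Acta2 (2035) and Kcnj8 (2548), were the 3 with log2 fold changes below 0. The 6 longer ones, from Rgs5 (4096 bases) to Cspg4 (8121), all had values above 0. The same trend ran through the whole table: genes had a median of -0.25 in the shortest of 10 equal bins by transcript length and 0.23 in the longest. Tagln and Acta2, in bins 2 and 3, lay below the bin medians of -0.13 and -0.08. Abcc9, Notch3 and Cspg4 were in bin 10, where Cspg4 (0.36) lay above the median of 0.23 and Notch3 (0.26) near it. After the length correction Acta2 was at -0.39 and Tagln at -0.30, with limma-trend adjusted p of 0.406 and 0.453. Myh11 and Abcc9 changed sign, to -0.12 and -0.072. The slope of a library's values on log2 length was -0.21 in wild-type replicate 1 and 0.15 in replicate 8, the libraries with the highest and the lowest Acta2 and Tagln. Other libraries did not keep that order. Wild-type replicate 4 had a slope of -0.098 and the lowest wild-type Acta2, at 504.9 normalized counts. Wild-type replicate 3 had a slope of 0.067 and a higher Acta2, at 562.8. The part of length in the members' values was not tested.

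**Figure D4:**
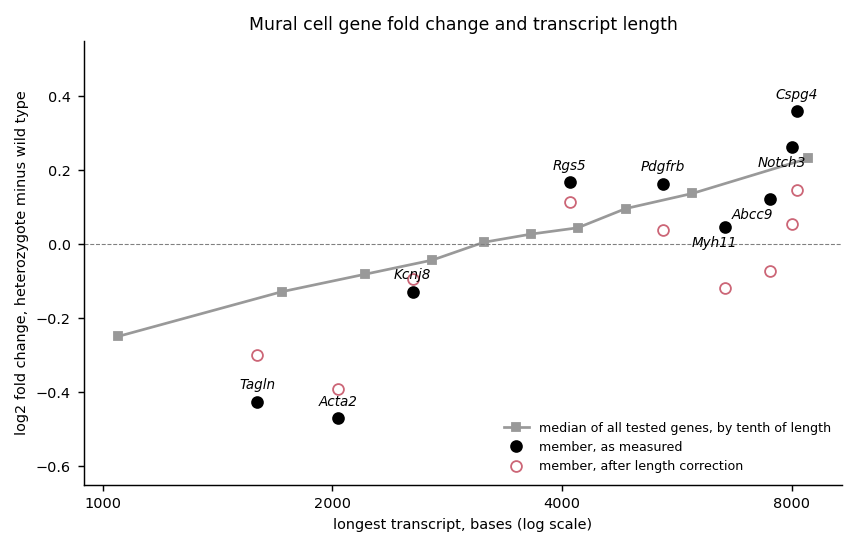
Log2 fold change (libraries labelled heterozygote minus wild type) against the longest GENCODE M21 transcript in bases on a log scale; black points are members as measured, open red points the same after length correction, and grey squares the medians of all tested genes in 10 bins of length. Members from 1595 to 2548 bases lie below 0 and those from 4096 bases up lie above it.

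Other genes of the same cells and pathways were read from the same fit, and none of the 111 genes tested in 9 lists (0 calls) passed limma-trend after adjustment, against 0.0807% of all genes. Of 17 other pericyte genes 12 had log2 fold changes above 0, against 52.3% of all genes, with a median of 0.04. 1 of the 17 passed an unadjusted p of 0.05, against 14.1% of all genes. It was Tbx18, a mural transcription factor gene, at 0.31 (limma-trend adjusted p of 0.319). Atp13a5 and Cd248, further pericyte markers, had values of 0.45 and 0.30 (limma-trend adjusted p of 0.476 and 0.543). Of 18 other contractile genes 10 were above 0, with a median of 0.02, and 6 had an unadjusted p under 0.05, 3 in each direction.

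The largest difference among the listed contractile genes was in Ppp1r14a, for CPI-17, an inhibitor of myosin phosphatase. It had 724.2, 411.6, 258.5 and 641.4 normalized counts in wild-type replicates 1 to 4 and 193.3, 209.1, 222.4 and 144.4 in replicates 5 to 8. The groups did not overlap, and the log2 fold change was -1.31 with a limma-trend adjusted p of 0.160. The transcript of Ppp1r14a has 950 bases, and all genes in length bin 1, the shortest, had a median of -0.25. The part of other cell types in its values, such as the oligodendrocyte precursors described above, was not tested. Smtn, for smoothelin of contractile smooth muscle, lay the other way without overlap, at 1181.1 ± 87.7 and 1478.2 ± 178.2 normalized counts (SD, n = 4 each) and a limma-trend adjusted p of 0.275. Actn1, for the actin cross-linker alpha-actinin, had a log2 fold change of 0.50 (limma-trend adjusted p of 0.266). The others under an unadjusted p of 0.05 were Flna (0.28), Myl6 (-0.50) and Des (-0.47), for filamin, a myosin light chain and the intermediate filament desmin, named after their values were seen.

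Of 9 transcription factor genes of smooth muscle 8 were above 0, against 52.3% of all genes, with a median of 0.22. Klf4, for a factor that opposes the contractile state, had 401.7 ± 83.2 normalized counts (SD, n = 4) in wild type against 732.7 ± 182.4 (SD, n = 4) in the labelled libraries. Its groups did not overlap, at 0.85 on the log2 scale and a limma-trend adjusted p of 0.178. Srf, for serum response factor, had 0.32 without overlap, and Mrtfb, for a cofactor of it, 0.29 (limma-trend adjusted p of 0.361 and 0.328). Among the paralogs of the members, Tagln3, a neuronal transgelin, was lower without overlap at -0.45, and the non-muscle myosins Myh9 and Myh10 had 0.34 and 0.44 (limma-trend adjusted p of 0.226, 0.266 and 0.308). Mrtfb, Myh9 and Myh10 have long transcripts of 8295, 7433 and 7791 bases, and all genes in length bins 9 and 10 had medians of 0.14 and 0.23. Those of Klf4, Srf and Tagln3 are shorter, at 3029, 2616 and 1240 bases. Tagln3 lay between the median lengths of bins 1 and 2, where all genes had medians of -0.25 and -0.13. Klf4 and Srf lay between the median lengths of bins 3 and 5, where the medians were -0.08 and 0.005. The other muscle actin genes Actg2, Acta1 and Actc1 were not analysed here, and reads shared between actin genes may have been split by the counting.

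For ligands and their pathways, Pdgfb, the ligand of Pdgfrb, had a log2 fold change of 0.12. Pdgfd, which also binds that receptor, had -0.18 (limma-trend adjusted p of 0.768 and 0.633). Pdgfa, which acts through the alpha receptor, was lower without overlap at -0.45 (limma-trend adjusted p of 0.266). Of 17 Notch pathway genes 13 were above 0, against 52.3% of all genes, with a median of 0.16. Notch1 had 0.38, Maml1, for a coactivator, 0.30 and Notch2 0.25 (limma-trend adjusted p of 0.278, 0.381 and 0.412). Their transcripts are long, at 9488, 5528 and 10500 bases, and all genes in length bins 9 and 10 had medians of 0.14 and 0.23. Of 14 RGS family genes 11 were above 0, against 52.3% of all genes, with a median of 0.17. Rgs20 was lower without overlap at -0.80, and Rgs3 and Rgs17 had 0.19 and 0.44 (limma-trend adjusted p of 0.337, 0.416 and 0.470). The transcripts of Rgs20, Rgs3 and Rgs17 have 2125, 4698 and 8191 bases. The TGF-beta and angiopoietin list had 5 of 19 genes above every wild-type library in all labelled libraries, against 3.4% of all genes. Among them, the receptor genes Tgfbr2 and Tgfbr3 had 0.48 and 0.29 and the signal transducer gene Smad3 0.33 (limma-trend adjusted p of 0.266, 0.278 and 0.294). The other 2, named after their values were seen, were Eng and S1pr3, for an endothelial co-receptor and a sphingosine phosphate receptor, at 0.26 and 0.43 (limma-trend adjusted p of 0.306 and 0.325). The transcripts of the 5 genes run from 3422 bases in Eng to 8092 in Tgfbr2.

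**Figure D5:**
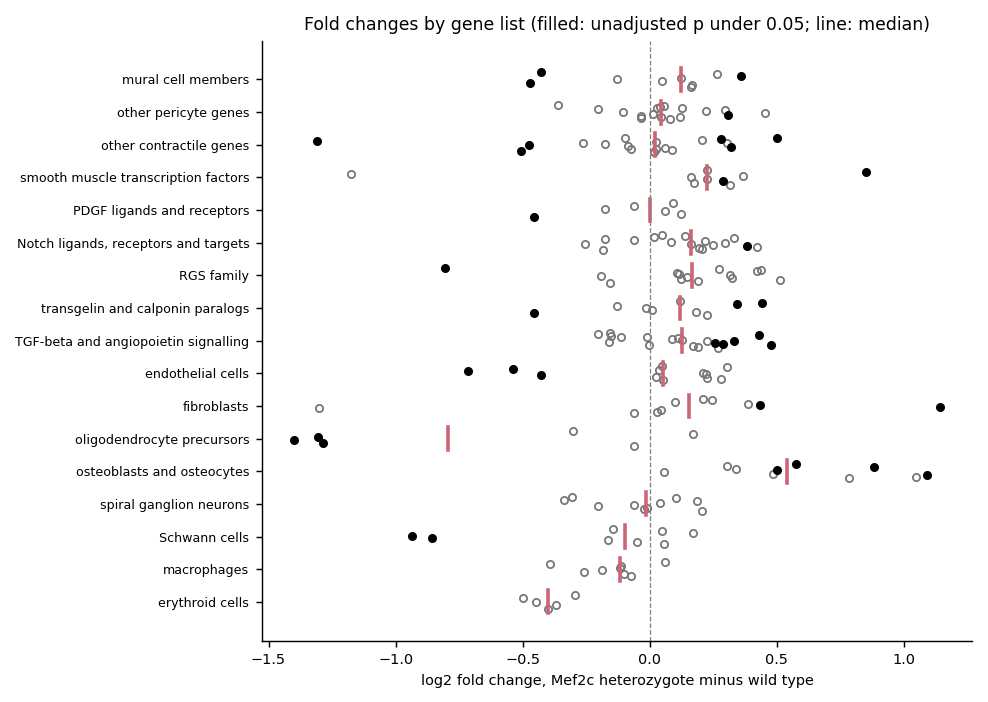
Log2 fold changes (libraries labelled heterozygote minus wild type) of single genes, 1 row per gene list, with filled points for an unadjusted limma p under 0.05, open points for the rest and a red line at the list's median. The mural members centre at 0.12, the oligodendrocyte precursor genes at -0.79 and the osteoblast and osteocyte genes at 0.54.

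Markers of other cell types varied over the same libraries. The 12 endothelial genes, for the cells that mural cells cover, had a median log2 fold change of 0.05, and their summed normalized count was 11478.3 to 15120.3 in wild type and 12386.4 to 13135.8 in the libraries labelled heterozygote. Of the 12, 9 were above 0, against 52.3% of all genes. The 3 below 0 were Emcn (-0.71), Egfl7 (-0.54) and Cldn5 (-0.43). All 3 had an unadjusted limma p under 0.05, against 7.34% of all genes on that side, and 0 passed after adjustment. The summed 9 members ran from 6951.3 to 8856.2 in wild type and from 8230.3 to 9032.8 in the labelled libraries. For the 10 fibroblast genes, a cell type that also carries Pdgfrb, 8 were above 0 and the sums were 26712.7 to 52614.9 and 37700.3 to 52318.8. All 10 osteoblast and osteocyte genes were above 0, with sums of 3844.6 to 13760.2 and 7995.5 to 17205.0, highest in replicate 7 and wild-type replicate 1. Fibroblasts and bone-forming cells can carry Acta2 and Tagln, and these were highest in wild-type replicate 1 but low in replicate 7. Of 7 skeletal muscle genes 1 was in the table, Mylpf, at 2.2 to 25.4 normalized counts. The 8 Schwann cell genes had sums of 242276 to 283741 in wild type and 201200 to 214466 in the labelled libraries, which did not overlap. Among them Mag, a myelin gene that oligodendrocytes also carry, fell by 0.94 on the log2 scale (limma-trend adjusted p of 0.0199). Mbp, another such gene, had -0.86 without overlap (limma-trend adjusted p of 0.0830). Macrophage and erythroid sums overlapped between genotypes. The part of these cell types in the members' values was not tested.

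The genes most alike to a member over the 8 libraries, among 13356 with a mean of at least 50 normalized counts, were not other mural genes. For Rgs5 they were Btbd2, Wee1, Gm10336, Prrg3 and Asap1, with Pearson correlations of 0.96 to 0.99. Its best member was Abcc9, at 0.68 and place 1829. For Myh11 they were Tdp1, Dlat, Zbtb1, D6Wsu163e and Lmbrd1, at 0.95 to 0.96, and its best member was Rgs5, at 0.60 and place 702. All genes of a library share its depth and dissection. With 8 libraries and so many genes compared, such values are a description only.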

How the data were processed

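The members and gene lists were chosen with earlier results of these data known. The deposited table gives a signal per gene and library: size-factor-scaled reads to 1 decimal, judged by their values. The submitters' processing notes name Partek, STAR, DESeq2 and mm10, with no role or version; annotation and strand use are not given in the sources used here. The authors' deposited comparison gives a p-value, an FDR, a ratio and its log2 value, per the file headers. Between 89.27% and 92.25% of values under 1000 were whole multiples of 1 library step (tolerance 0.06). This was under the 95% needed to recover reads, and count models were left out. Approximate reads from that step gave the depths above and an alternative analysis, limma-voom on estimated reads, in which 14 genes passed.

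The 14870 genes that reached 10 normalized counts in 4 or more libraries were analysed as log2(value + 1), so fold changes of low genes are understated. The test was limma-trend (limma 3.58.1, R 4.3.3) on all 8 libraries without covariates, Benjamini-Hochberg threshold 0.05. Python 3.11.15 did the rest. Named genes were Mef2c, the members, up to 3 genes per pathway list with the smallest unadjusted p, and the 5 genes most alike to Rgs5 and Myh11. Markers of other cell types, Pcsk7, Flna, Myl6, Des, Eng and S1pr3 were named outside that rule, after their values were seen. Transcript lengths came from GENCODE M21 by symbol (97.6% of genes), promoters from RefSeq. Length was corrected by loess (span 0.5).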

Additional observations from a re-analysis of the deposited data

How the results depend on the processing

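Under all 20 alternatives to the main analysis, 0 members passed an adjusted p of 0.05. All but Myh11 and Abcc9 kept their sign in all 20. Myh11 reversed with the length correction (-0.12) and without wild-type replicate 4, and ran from -0.0873 to 0.17 over single libraries left out. Abcc9 reversed with the length correction (-0.072), without wild-type replicate 4 (-0.030) and without heterozygote-labelled replicate 8, and ran from -0.0335 to 0.30 over single libraries left out. Acta2 ranged from -0.60 to -0.31, with limma-trend adjusted p from 0.0619 to 0.625 and an unadjusted p under 0.05 in 16 of 20. Tagln ranged from -0.51 to -0.28, with adjusted p from 0.0673 to 0.625. Over all genes, 12 passed in the main analysis. The count was 26 with the length correction, 576 with the residuals' first principal component as covariate, 96 with array quality weights and 7 with quantile normalization. It ran from 0 to 221 when single libraries were left out, with 0 without wild-type replicates 2 or 4 or heterozygote-labelled replicate 8 (1919, 1451 and 1180 genes at an unadjusted p under 0.05), and 221 without wild-type replicate 3. Mef2c, at 0.53, passed with the principal component covariate (log2 fold change 0.53, limma-trend adjusted p of 0.0404), and its adjusted p ran from 0.0404 to 0.551. That component was taken from the residuals of the main fit, so it could not move any fold change and could only take up residual spread. The larger count and smaller p-values with it are therefore not independent support. The share of called genes on the higher side went from 8.33% to 53.5% with that covariate and to 54.2% with the weights. The cause of these shifts was not tested. No paired analysis was possible because the replicate numbers are not shared between genotypes. The lowest value of any member in any library was 155.1 normalized counts.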

Other observations

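10 ratios between a mural gene and another gene were computed within each library after the values had been seen, and none was tested. The ratio of Pdgfrb to Pdgfra, the PDGF receptor of fibroblasts and oligodendrocyte precursors, was 0.716, 0.659, 0.753 and 0.554 in wild-type replicates 1 to 4. It was 0.797, 0.781, 0.760 and 0.778 in heterozygote-labelled replicates 5 to 8, so the genotypes did not overlap and the labelled libraries lay close together. Pdgfra alone differed by -0.062 on the log2 scale (limma-trend adjusted p of 0.820). The ratio of Rgs5 to the endothelial gene Pecam1 was narrow in wild type, from 5.23 to 5.54, and ran from 4.73 to 6.91 in the labelled libraries. Of 20 groups of 4 libraries checked for a single library far from the other 3, over the members and Mef2c, 0 stood out, and chance gives 1.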
